A study of Caenorhabditis elegans with 6 samples.

Results

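The genes described here code for the proteins of the mitochondrial ribosome of *Caenorhabditis elegans*. They were taken by name, as every gene whose name in the count tables begins with *mrpl-* (large subunit) or *mrps-* (small subunit) followed by a digit. The rule found 71 of the 46904 genes in the tables, 42 *mrpl* and 29 *mrps*. All 71 had enough counts to pass the filter on low counts, and so all 71 are among the 14899 genes tested.

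Wild-type N2 hermaphrodites, 3 days old, were fed for 5 days on OP50 + LL100933, on OP50 + LL12007 or on *Escherichia coli* OP50 alone, the usual laboratory food, on mNGM plates. Both mixed diets held the same OP50 strain and a strain of *Lactococcus lactis* in a 1:1 ratio. LL12007 makes the antimicrobial peptide nisin and LL100933 does not. The sample labels give the number of the second of these strains as NBRC 100923, and the study's name is used here. RNA was taken from about 200 whole worms a group, and each of the 3 groups had 2 libraries, with totals of 19763455 and 15748820 counts for OP50 + LL100933, 15953213 and 14929196 for OP50 + LL12007, and 21691687 and 17280251 for OP50. Whether the 2 libraries of a group stem from different cultures is not stated in the labels. The p-values therefore speak only of the variation among the 6 libraries sequenced, and that variation may be technical.

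The mitochondrial ribosome is a machine of its own inside mitochondria. It makes the few respiratory chain subunits that mitochondrial DNA encodes, while its proteins are encoded in the nucleus, made in the cytosol and imported. Its RNAs come from mitochondrial DNA, so its assembly draws on both genomes. In *C. elegans*, knockdown of single members such as *mrps-5* during larval growth is known to extend lifespan and to switch on the mitochondrial unfolded protein response, a stress programme that raises mitochondrial chaperones.

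No member passed the test across all genes (edgeR) in any comparison of the diets, and DESeq2 called 1 member in 1 of them. With OP50 + LL100933 most members were slightly below their level with OP50, with OP50 + LL12007 they lay about evenly on both sides of it, and between the diets most were slightly higher with OP50 + LL12007. The shifts were small. The median member was at 0.853 of its OP50 level with OP50 + LL100933 and at 0.997 of it with OP50 + LL12007. Every one of the 71 intervals (95%) lay within a 2-fold change in all 3 comparisons.

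The names were checked against the Gene Ontology terms in the count tables. Of the 71 members, 63 carried a mitochondrial term and 70 a ribosome term. Of the 42 *mrpl* genes, 27 carried a large subunit term, 0 a small subunit term and 15 neither. Of the 29 *mrps* genes, 25 carried a small subunit term, and *mrps-27* and *mrps-33* carried neither. The other 2, *mrps-18C* and *mrps-30*, carried a large subunit term, and in mammals the protein named MRPS30 is in fact found in the large subunit. They are kept with the *mrps* genes here, as the name rule puts them. The symbol of 1 member differed in a later annotation of the same assembly: *mrpl-14* is named *F45E12.5* there. Another doubtful member was *mrpl-44*, which carries terms of an RNA-cutting enzyme and of a carboxylase. It shares 164 exonic bases on the same strand with *F02A9.10*. That neighbour averaged 3623 counts a library against 1076 for *mrpl-44*, and how reads in the shared stretch were assigned is not given in the sources used here. In all, 18 members share exonic bases with another gene, 15 of them only on the opposite strand. The strand setting of the counting is not given in the sources used here either, so the reads of such pairs may not be fully told apart. The named members this touches are *mrpl-10*, *mrpl-12*, *mrpl-24*, *mrpl-30*, *mrpl-54* and *mrps-18B*.

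The members are spread over the 5 autosomes, with 15 on chromosome I, 13 on II, 22 on III, 11 on IV, 10 on V and 0 on X. Of all tested genes, 15% are on X. Chromosome III holds 31% of the members and 15.1% of all tested genes. Many members have a tested neighbour on the same strand within 500 bases, the arrangement in which worm genes can be transcribed together as an operon. This was so for 43 of the 71 (60.6%), for 22 of the 42 *mrpl* genes and for 21 of the 29 *mrps* genes, against 30.5% of all tested genes. They are short genes, with a median exonic length of 759 bases, against 1310 bases over all tested genes. These are descriptions, with no test.

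Levels are compared between genes as RPKM, counts scaled for exonic length and library size, averaged over the 6 libraries. The median member was at 37.3 RPKM, against 11.5 RPKM over all tested genes. The proteins of the cytosolic ribosome (*rpl* and *rps* genes, 77 tested) had a median of 1658 RPKM, and the nuclear genes of the respiratory chain (35 tested) one of 190 RPKM. The mitochondrial ribosome was thus read far below the cytosolic one. Within it, levels were not equal although the ribosome holds its proteins in fixed proportions: the highest member was 14.5 times the lowest. The quartiles of the members were 23 and 49.7 RPKM, and the medians of the subunits were 34 RPKM for the large and 38.5 RPKM for the small.

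The highest level was that of *mrpl-51*, a large subunit protein, at 155 RPKM. It was followed by *mrps-17*, the homologue of bacterial S17, at 123 RPKM, *mrps-18A*, one of the worm's S18 homologues, at 110 RPKM, and *mrpl-47*, the homologue of bacterial L29, at 95.2 RPKM. The lowest was *mrpl-54* at 10.7 RPKM. The next were *mrps-21*, the homologue of bacterial S21, at 11.5 RPKM, *mrps-24*, a small subunit protein, at 12 RPKM and *mrpl-30*, the homologue of bacterial L30, at 12.8 RPKM. The 4 highest and the 4 lowest stood far apart in every library, while neighbours among the lowest 4 differed by less than their spread: *mrpl-54* was at 10.7 ± 1.8 RPKM with OP50 + LL100933, 11.8 ± 1.6 RPKM with OP50 + LL12007 and 9.51 ± 1.5 RPKM with OP50, and *mrps-24* at 10.5 ± 1.0, 12.3 ± 2.5 and 13.1 ± 3.1 RPKM in the same order (SD, n = 2).

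**Figure D1:**
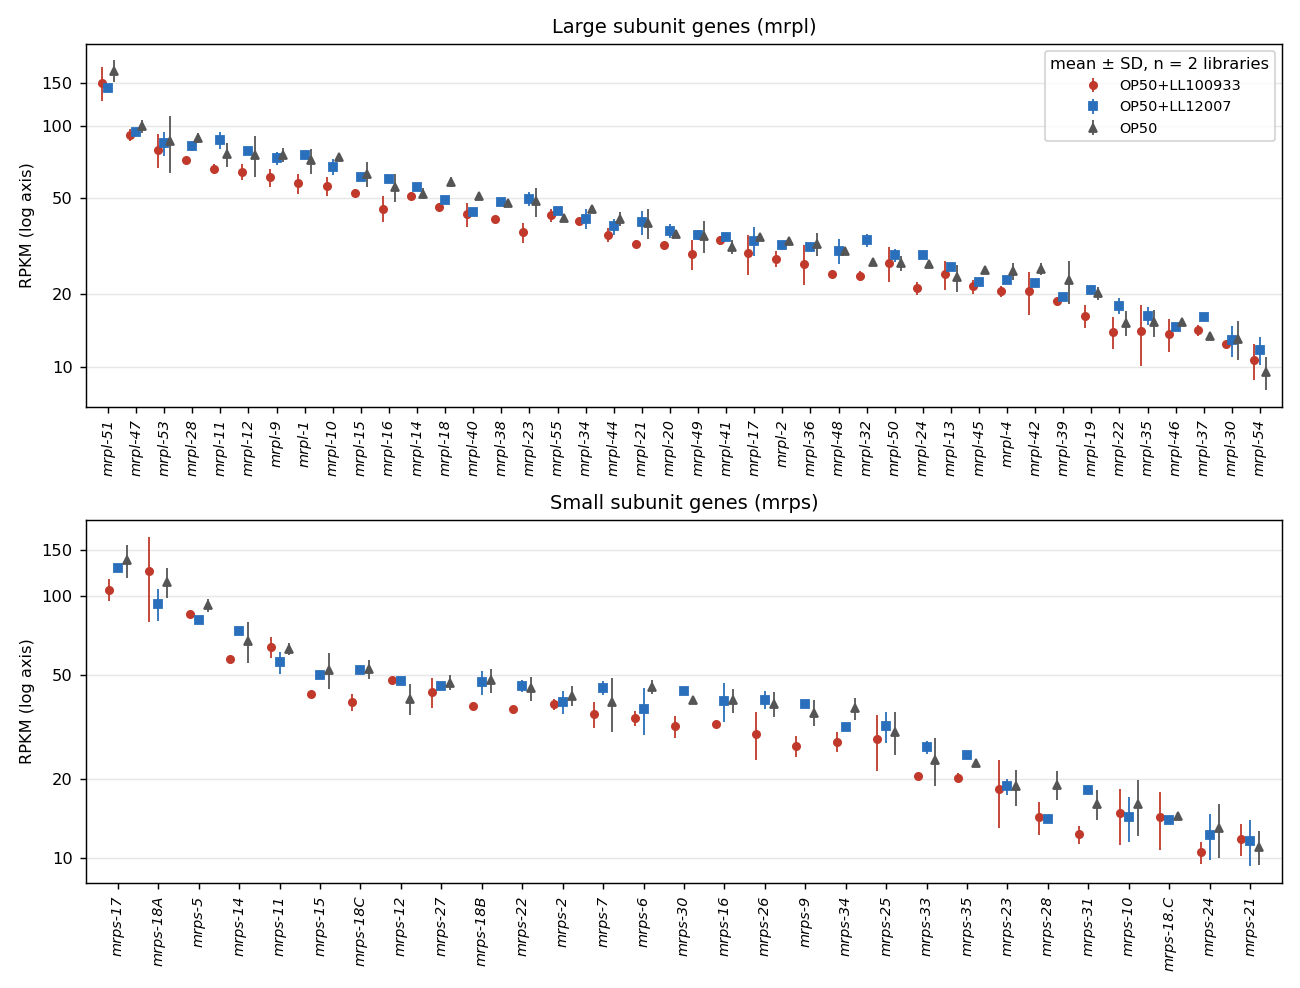
Level of each of the 42 large subunit and 29 small subunit genes, in RPKM on a log axis, ordered by the mean over the 6 libraries. Points are group means of 2 libraries and bars are SDs. Levels run between 155 RPKM (*mrpl-51*) and 10.7 RPKM (*mrpl-54*), and the points of OP50 + LL100933 often lie lowest of the 3.

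The question of the first comparison was which transcripts differed in worms given the strain that makes no nisin. With OP50 + LL100933, 0 of the 71 members passed edgeR's quasi-likelihood test at an adjusted p of 0.05 (Benjamini-Hochberg over 14899 genes), where 6.62% of all tested genes did, 4.38% higher and 2.24% lower. At an unadjusted p of 0.05, 18 members were lower and 0 higher, 25.4% of the members, against 15.8% of all tested genes lower and 15.6% higher. DESeq2 called 1 member lower, *mrps-18C*, and 0 higher, where it called 4.28% of all tested genes lower and 6.68% higher. The median log2 fold change was -0.23 over the members and 0.02 over all tested genes, and 61 of the 71 were below 0, against 48.4% of all tested genes. Both OP50 + LL100933 libraries lay below both OP50 libraries for 41 members (57.7%) and above both for 1, where this held for 29.9% and 29.2% of all tested genes.

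This shift depends on which OP50 library is used. The median log2 fold change was -0.15 without OP50 replicate 1, which left 4 members lower and 1 higher at an unadjusted p of 0.05, and -0.29 without OP50 replicate 2, which left 26 lower. The members' share of all counts was 0.236% and 0.244% in the OP50 + LL100933 libraries, 0.270% and 0.272% in the OP50 + LL12007 libraries, and 0.284% and 0.260% in the OP50 libraries. All 4 of the other libraries were thus above both OP50 + LL100933 libraries. Within OP50, replicate 2 was below replicate 1 in 61 of the 71 members, by a median of -0.19 on the log2 scale, and the cytosolic ribosomal protein genes differed there by -0.42. Between the libraries of OP50 + LL100933 and of OP50 + LL12007 the members' medians differed by only -0.02 and -0.01.

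*mrps-18C* (WBGene00016142) had the lowest p of the members. It lies on chromosome III at 4935578 to 4937223, plus strand (WBcel235), and is one of the worm's homologues of bacterial S18. It had 892 and 990 normalized counts (counts scaled to the mean library size) on OP50 + LL100933, 1232 and 1270 on OP50 + LL12007, and 1332 and 1184 on OP50. The OP50 + LL100933 libraries were the lowest, and those of the other groups overlapped. The log2 fold change against OP50 was -0.42 ± 0.11 (SE, adjusted p = 0.0546 by edgeR).

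*mrpl-10* (WBGene00010458, chromosome II, 8277531 to 8278515, minus strand) is the homologue of bacterial L10, which anchors the stalk that draws translation factors to the ribosome. It had 781 and 887 normalized counts on OP50 + LL100933, 950 and 1054 on OP50 + LL12007, and 1093 and 1104 on OP50. The groups did not overlap and stood in that order. Against OP50, OP50 + LL100933 gave a log2 fold change of -0.40 ± 0.12 (SE, adjusted p = 0.0639 by edgeR). The other stalk gene, *mrpl-12*, homologue of bacterial L7/L12, had 774 and 698 normalized counts on OP50 + LL100933, 912 and 879 on OP50 + LL12007, and 985 and 752 on OP50. Its OP50 libraries spanned all the OP50 + LL12007 values, and the log2 fold change of OP50 + LL100933 against OP50 was -0.24 ± 0.14 (SE).

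*mrps-9* (WBGene00017319, chromosome III, 8266062 to 8267841, plus strand), homologue of bacterial S9 in the head of the small subunit, had 567 and 647 normalized counts on OP50 + LL100933, 898 and 859 on OP50 + LL12007, and 876 and 746 on OP50. *mrps-34* (WBGene00010905, chromosome III, 4541326 to 4542452, minus strand), whose mammalian homologue has no bacterial counterpart, had 414 and 470 on OP50 + LL100933, 495 and 507 on OP50 + LL12007, and 632 and 553 on OP50. Both were lowest with OP50 + LL100933, and only *mrps-34* was also below OP50 in both OP50 + LL12007 libraries. The log2 fold changes of OP50 + LL100933 against OP50 were -0.42 ± 0.13 for *mrps-9* and -0.42 ± 0.13 for *mrps-34* (SE, adjusted p = 0.07 and 0.0741 by edgeR).

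The direction was not shared by every member. *mrps-12*, homologue of bacterial S12 in the decoding region, was the one member with both OP50 + LL100933 libraries above both OP50 libraries. It had 442 and 463 normalized counts on OP50 + LL100933, 447 and 456 on OP50 + LL12007, and 422 and 349 on OP50, and its log2 fold change on OP50 + LL100933 of 0.23 ± 0.14 (SE, adjusted p = 0.287 by edgeR) did not pass the test.

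**Figure D2:**
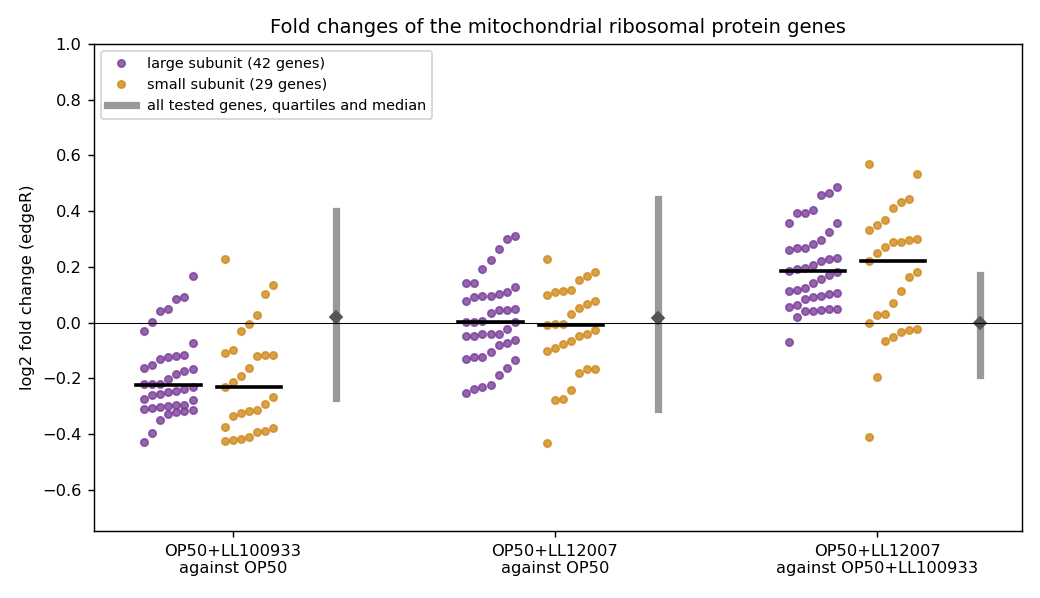
Log2 fold change of each member in the 3 comparisons, with large and small subunit genes apart. Black bars are medians, and the grey bars and diamonds are the quartiles and the median of all 14899 tested genes. The medians are -0.23 for both subunits with OP50 + LL100933, near 0 for both with OP50 + LL12007, and 0.18 (large) and 0.22 (small) between the diets.

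With OP50 + LL12007 against OP50, the strain that makes nisin was set against the same 2 OP50 libraries. Again 0 of the 71 members passed edgeR's test, where 16.5% of all tested genes did, 8.76% higher and 7.71% lower. At an unadjusted p of 0.05, 0 members were higher and 1 lower (*mrps-28*), against 18.8% and 18.1% of all tested genes, and DESeq2 called 0 members, where it called 9.87% of all tested genes higher and 8.37% lower. The members thus held few differences on a diet with which many other transcripts differed. The median log2 fold change was -0.005, beside 0.015 over all tested genes, and 37 of the 71 were below 0, beside 49.0% of all tested genes. The median was 0.09 without OP50 replicate 1 and -0.10 without OP50 replicate 2. Both OP50 + LL12007 libraries lay below both OP50 libraries for 17 members (23.9%) and above both for 13 (18.3%), where this held for 33.9% and 34.5% of all tested genes. The intervals (95%) of 59 members excluded a 1.5-fold change in either direction, against 39 members for OP50 + LL100933.

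*mrps-28* (WBGene00012830, chromosome V, 19644239 to 19645758, plus strand), a small subunit protein, had 200 and 164 normalized counts on OP50 + LL100933, 182 and 176 on OP50 + LL12007, and 264 and 220 on OP50. All 4 libraries of the mixed diets were below both OP50 libraries. The log2 fold change was -0.41 ± 0.18 with OP50 + LL100933 (SE, adjusted p = 0.16 by edgeR) and -0.43 ± 0.18 with OP50 + LL12007 (SE, adjusted p = 0.122 by edgeR).

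*mrpl-18*, the homologue of bacterial L18, was also highest on OP50, with 498 and 527 normalized counts on OP50 + LL100933, 553 and 541 on OP50 + LL12007, and 672 and 632 on OP50. Its log2 fold change with OP50 + LL12007 was -0.25 ± 0.12 (SE, adjusted p = 0.146 by edgeR). In the other direction stood *mrpl-32*, homologue of bacterial L32, whose maturation in yeast and mammals needs a protease of the inner membrane. It had 287 and 270 normalized counts on OP50 + LL100933, 374 and 408 on OP50 + LL12007, and 322 and 312 on OP50. OP50 lay between the diets, and the log2 fold change of OP50 + LL12007 against OP50 was 0.30 ± 0.14 (SE, adjusted p = 0.15 by edgeR).

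Of the members whose knockdown is known to extend worm lifespan, none passed the test. *mrps-5*, homologue of bacterial S5 and the best known of them, had 2140 and 2202 normalized counts on OP50 + LL100933, 2126 and 2023 on OP50 + LL12007, and 2446 and 2260 on OP50. All 4 libraries of the mixed diets were below both OP50 libraries, by a small margin. The log2 fold changes against OP50 were -0.12 ± 0.10 with OP50 + LL100933 and -0.18 ± 0.10 with OP50 + LL12007 (SE, adjusted p = 0.461 and 0.226 by edgeR).

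*mrpl-1*, homologue of L1 at the exit of spent tRNA, had 1173 and 1345 normalized counts on OP50 + LL100933, 1652 and 1654 on OP50 + LL12007, and 1698 and 1436 on OP50. Only the OP50 + LL100933 libraries stood apart, with a log2 fold change of -0.32 ± 0.12 against OP50 (SE, adjusted p = 0.115 by edgeR). *mrpl-2*, homologue of L2 near the site where peptide bonds form, had 563 and 508 on OP50 + LL100933, 628 and 591 on OP50 + LL12007, and 627 and 648 on OP50. *mrpl-37*, whose mammalian homologue has no bacterial counterpart, had 374 and 347 on OP50 + LL100933, 405 and 413 on OP50 + LL12007, and 350 and 330 on OP50. The 4 genes had no common order of the groups: *mrps-5* was highest with OP50, and *mrpl-37* with OP50 + LL12007. The log2 fold changes against OP50 of *mrpl-2* and *mrpl-37* with OP50 + LL100933 were -0.25 and 0.08, and that of *mrpl-37* with OP50 + LL12007 was 0.26.

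The 4 members numbered 18 are paralogs, homologues of bacterial S18, and also showed no common order. Beside *mrps-18C*, *mrps-18B* had 556 and 563 normalized counts on OP50 + LL100933, 636 and 739 on OP50 + LL12007, and 751 and 649 on OP50. *mrps-18.C* was the weakest, with 146 and 102 counts on OP50 + LL100933, 123 and 120 on OP50 + LL12007, and 127 and 122 on OP50. *mrps-18A* had 1786 and 1067 on OP50 + LL100933, 1181 and 969 on OP50 + LL12007, and 1416 and 1182 on OP50. The 2 OP50 + LL100933 libraries of *mrps-18A* were the highest and nearly the lowest of the 6. Its log2 fold change of 0.14 ± 0.24 against OP50 (SE) turned to -0.29 without OP50 + LL100933 replicate 1, so no direction can be read from it.

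**Figure D3:**
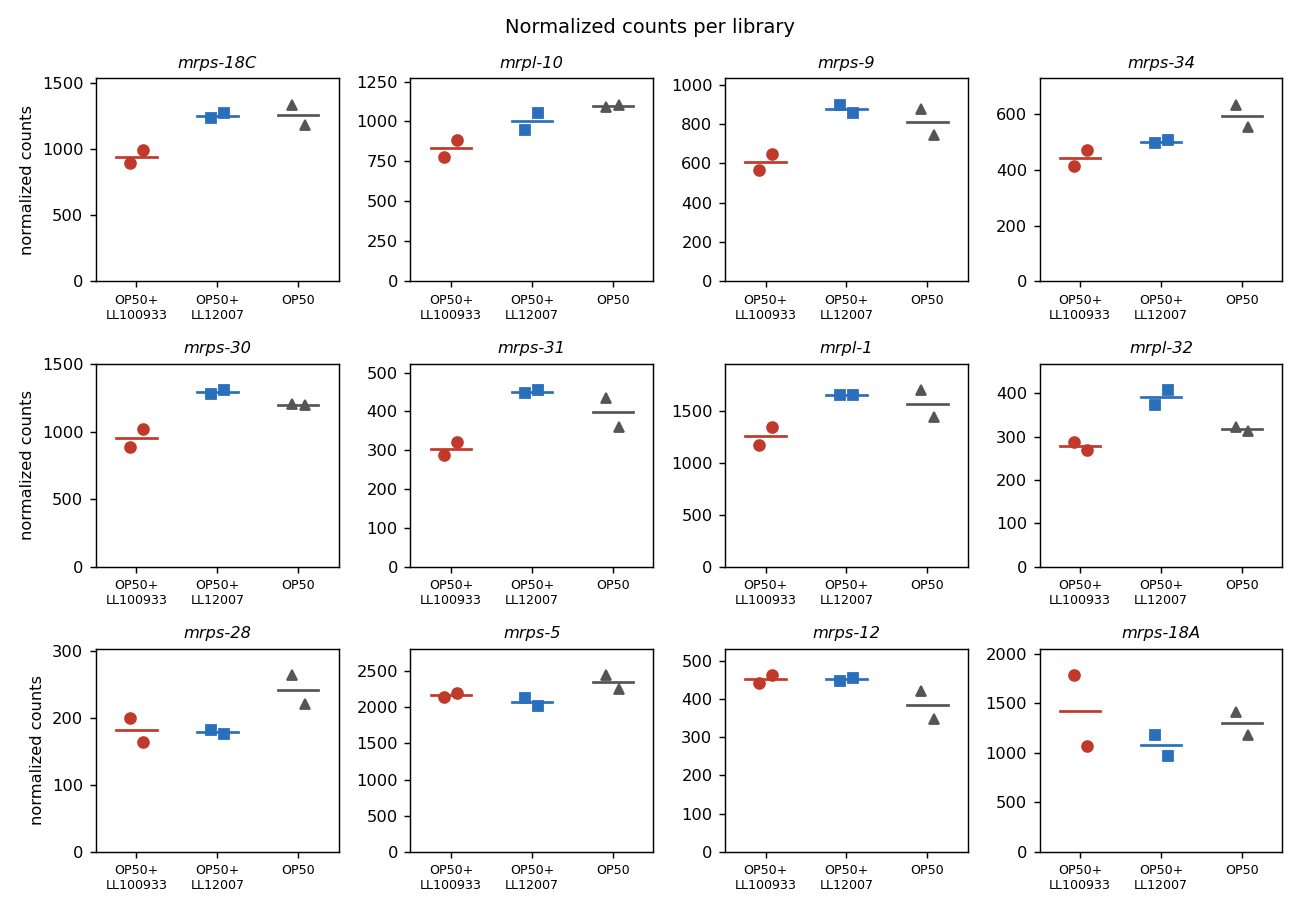
Normalized counts of 12 named members, each point 1 library and each line the mean of 2, on axes that start at 0. For *mrps-18C*, *mrpl-10*, *mrps-9*, *mrps-34*, *mrps-30*, *mrps-31*, *mrpl-1* and *mrpl-32* the OP50 + LL100933 libraries lie below all others. *mrps-18A* shows the spread between the OP50 + LL100933 libraries, at 1786 and 1067.

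The third comparison set the diets against each other. It shares its libraries with the other comparisons, so its values are not separate evidence. Between OP50 + LL12007 and OP50 + LL100933, edgeR on all libraries called 0 of the 71 members and 0 of all 14899 genes. At an unadjusted p of 0.05, 18 members were higher with OP50 + LL12007 and 0 lower, against 5.26% and 5.01% of all tested genes. DESeq2 called 0 members, where it called 0.597% of all tested genes higher and 0.436% lower. The median log2 fold change was 0.19 over the members and -0.003 over all tested genes, and 9 of the 71 members were below 0, beside 50.4% of all tested genes. Both OP50 + LL12007 libraries lay above both OP50 + LL100933 libraries for 40 members (56.3%) and below both for 2, where this held for 24.6% and 21.9% of all tested genes. In 32 of the 71 members (45.1%) the OP50 + LL100933 libraries were the lowest 2 of all 6, against 8.76% of all tested genes.

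*mrps-9*, with the values given above, had the lowest p between the diets, its log2 fold change being 0.53 ± 0.13 on OP50 + LL12007 against OP50 + LL100933 (SE, adjusted p = 0.225 by edgeR). It passed the threshold with no filter and when these 2 groups were fitted alone. It did not pass with RLE, upper-quartile or no factors beside the library total, with a replicate block or with DESeq2. Fits that left out a library leave a single library in a group, so only their log2 fold change of *mrps-9* is given: 0.44 to 0.63. The next was *mrps-30* (WBGene00044321, chromosome I, 10636692 to 10638977, minus strand), with 1278 and 1307 normalized counts on OP50 + LL12007 and 886 and 1015 on OP50 + LL100933, beside 1203 and 1193 on OP50. Its log2 fold change was 0.44 ± 0.11 (SE, adjusted p = 0.247 by edgeR). *mrps-31*, whose mammalian homologue has no bacterial counterpart, had 447 and 455 on OP50 + LL12007 and 287 and 321 on OP50 + LL100933, beside 435 and 360 on OP50. *mrpl-24*, homologue of bacterial L24, had 516 and 519 on OP50 + LL12007 and 360 and 393 on OP50 + LL100933, beside 486 and 460 on OP50. In all 4 genes the libraries of the diets stood well apart, and OP50 was nearer to OP50 + LL12007.

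The medians of the subunits lay close to each other. The median log2 fold change was -0.23 for the large and -0.23 for the small subunit genes on OP50 + LL100933, 0.001 and -0.009 on OP50 + LL12007, and 0.18 and 0.22 between the diets. At an unadjusted p of 0.05, 7 of 42 large (16.7%) and 11 of 29 small subunit genes (37.9%) were lower with OP50 + LL100933, where 15.8% of all tested genes were, so the large subunit share was about that of all genes. Between the diets, 9 of 42 (21.4%) and 9 of 29 (31%) were higher with OP50 + LL12007, where 5.26% of all tested genes were. The small subunit genes were the more spread there, with 8 of 29 (27.6%) below 0 and 2 with both OP50 + LL12007 libraries below both OP50 + LL100933 libraries, beside 1 of 42 (2.38%) and 0 for the large. The difference between the subunits was not tested. The small subunit median depended most on 1 library: it was -0.059 without OP50 replicate 1. The SD of the log2 fold changes over the members was 0.16 with OP50 + LL100933, beside a median SE of 0.14 for a single member.

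Other genes of the same pathway were taken from their Gene Ontology terms (mitochondrial translation or mitochondrial ribosome), leaving out the members. Of 27 tested, 0 passed higher and 2 lower with OP50 + LL100933, where 4.38% and 2.24% of all tested genes did. With OP50 + LL12007, 0 passed higher and 3 lower, where 8.76% and 7.71% of all tested genes did. The median log2 fold changes were -0.28 and -0.14, beside 0.02 and 0.015 over all tested genes. Lower on both diets was *ZK1010.2*, which carries a term for the promotion of mitochondrial translation. It had 426 and 399 normalized counts on OP50 + LL100933, 454 and 428 on OP50 + LL12007, and 600 and 595 on OP50. The log2 fold changes were -0.53 ± 0.12 with OP50 + LL100933 and -0.44 ± 0.12 with OP50 + LL12007 (SE, adjusted p = 0.0428 and 0.0421 by edgeR).

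*lars-2*, the mitochondrial leucyl-tRNA synthetase, fell with OP50 + LL100933. It had 724 and 735 normalized counts on OP50 + LL100933, 846 and 878 on OP50 + LL12007, and 974 and 976 on OP50. The log2 fold change with OP50 + LL100933 was -0.42 ± 0.11 (SE, adjusted p = 0.0478 by edgeR). With OP50 + LL12007, *F32A7.4*, which carries a methyltransferase and a mitochondrial small subunit term, fell by 0.47 on the log2 scale (adjusted p = 0.033 by edgeR), and *Y66D12A.7*, with a term for the complex that amidates glutamyl-tRNA, fell by 0.62 (adjusted p = 0.0412 by edgeR). All these calls lie near the threshold and each is lost when 1 of several libraries is left out.

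The 13 tested genes on a list of mitochondrial aminoacyl-tRNA synthetases, the enzymes that load tRNAs for the mitochondrial ribosome, lay lower than the members. With OP50 + LL100933 all 13 were below 0, where 48.4% of all tested genes were, and both libraries were below both OP50 libraries in all 13, where this held for 29.9%. The median was -0.35, and 2 were called lower, where 2.24% of all tested genes were. These were *lars-2* and *fars-2*, the phenylalanyl-tRNA synthetase, with 849 and 900 normalized counts on OP50 + LL100933, 1002 and 1006 on OP50 + LL12007, and 1173 and 1171 on OP50 (log2 fold change -0.42 ± 0.10 with OP50 + LL100933, SE, adjusted p = 0.0462 by edgeR). The *fars-2* call is also lost when 1 of several libraries is left out, with an adjusted p of up to 0.19. With OP50 + LL12007, 0 of the 13 were called and the median was -0.17. Of a list of translation factors with 7 tested genes, 0 were called by edgeR on all libraries in any comparison. The elongation factor *tufm-1*, which brings loaded tRNA to the ribosome, had 5247 and 5292 normalized counts on OP50 + LL12007 and 3813 and 3837 on OP50 + LL100933, beside 4926 and 3926 on OP50. Its 2 diets stood apart as for many members, with a log2 fold change of 0.46 ± 0.13 between them (SE, adjusted p = 0.303 by edgeR). For fits that left out a library, which leave a single library in a group, only the log2 fold change of *tufm-1* is given: 0.45 to 0.47.

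The mRNAs that the mitochondrial ribosome translates, and its own RNAs, did not share the members' median order relative to OP50. The 12 mRNAs that mitochondrial DNA encodes had median log2 fold changes of 0.14 with OP50 + LL100933 and 0.41 with OP50 + LL12007, with 0 and 1 called. With OP50 + LL100933 both libraries lay above both OP50 libraries in 4 of the 12, where this held for 29.2% of all tested genes. Their median deviations from the gene mean were -0.10 and 0.02 in the OP50 + LL100933 libraries, and -0.02 and -0.37 in the OP50 libraries. Between the diets these mRNAs went the way of most members, with a median of 0.30 and 12 of 12 above 0. Both OP50 + LL12007 libraries lay above both OP50 + LL100933 libraries in 11, where this held for 24.6% of all tested genes. The called gene was *ndfl-4*, a subunit of complex I, with 447 and 506 normalized counts on OP50 + LL100933, 572 and 668 on OP50 + LL12007, and 374 and 352 on OP50. The groups did not overlap, and the log2 fold change with OP50 + LL12007 was 0.77 ± 0.14 (SE, adjusted p = 0.0196 by edgeR). The call is lost without either OP50 + LL12007 library.

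Of the ribosomal RNA genes of mitochondrial DNA, *MTCE.33* had 2557 and 2776 normalized counts on OP50 + LL100933, 1853 and 2034 on OP50 + LL12007, and 2056 and 2206 on OP50. *MTCE.7* had 2054 and 2480 on OP50 + LL100933, 2297 and 2596 on OP50 + LL12007, and 2104 and 2032 on OP50. *MTCE.33* was thus highest on the diet with which most members were lowest, and neither gene passed the test. The libraries were selected for poly(A) RNA, so the counts of ribosomal RNA depend on how much of it was carried through.

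**Figure D4:**
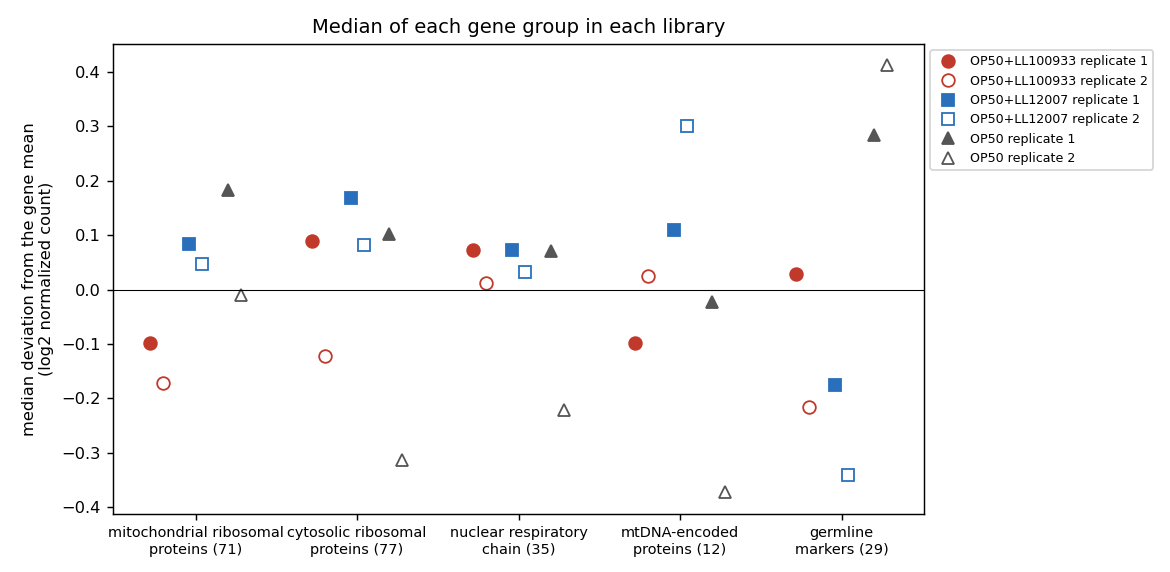
Median deviation of each gene group from the gene's mean over the 6 libraries, on the log2 scale, in every library. Filled symbols are replicate 1 and open symbols replicate 2. The mitochondrial ribosomal protein genes are at -0.10 and -0.17 in the OP50 + LL100933 libraries, 0.08 and 0.05 in the OP50 + LL12007 libraries, and 0.18 and -0.01 in the OP50 libraries.

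With OP50 + LL100933 against OP50, the median of the cytosolic ribosomal protein genes lay on the other side of 0 from the members' median. Between the diets both medians lay on the same side. Both OP50 + LL100933 libraries lay above both OP50 libraries in 4 of 77 cytosolic genes and below both in 1. This held for 29.2% and 29.9% of all tested genes. The cytosolic median deviations were 0.09 and -0.12 in the OP50 + LL100933 libraries, and 0.10 and -0.31 in the OP50 libraries. The cytosolic genes had a median log2 fold change of 0.09 with OP50 + LL100933, with 0 of 77 called by edgeR. It was 0.21 with OP50 + LL12007, with 3 called higher and 1 lower. Of all tested genes, 6.62% were called with OP50 + LL100933, and 8.76% higher and 7.71% lower with OP50 + LL12007. Between the diets the median of the cytosolic genes was 0.14, with 66 of 77 above 0. Both OP50 + LL12007 libraries lay above both OP50 + LL100933 libraries in 40 of them. The members had a median of 0.19, 62 of 71 above 0 and 40 with such libraries. Of all tested genes, 49.6% were above 0 and 24.6% had such libraries. The 35 nuclear genes of the respiratory chain had medians of 0.12 and 0.15, with 0 called with OP50 + LL100933 and 2 lower with OP50 + LL12007. Both groups, like the mitochondrial mRNAs, were lowest in OP50 replicate 2, while the members were lowest in the OP50 + LL100933 libraries. Of 19 tested chaperones, proteases and regulators of the mitochondrial unfolded protein response, 0 were called by edgeR on all libraries in any comparison, with medians of -0.19 with OP50 + LL100933, 0.07 with OP50 + LL12007 and 0.25 between the diets.

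*hsp-6*, the mitochondrial Hsp70 and a standard readout of that response, had 10128 and 9145 normalized counts on OP50 + LL100933, 10997 and 10526 on OP50 + LL12007, and 11927 and 9412 on OP50, all overlapping between a diet and OP50. *hsp-60*, the mitochondrial chaperonin, had 4051 and 4140 on OP50 + LL100933, 5952 and 6171 on OP50 + LL12007, and 5208 and 4549 on OP50. OP50 lay between the diets, as for *mrpl-32* and *mrps-30*. Between OP50 + LL12007 and OP50 + LL100933 the log2 fold change of *hsp-60* was 0.57 ± 0.12 (SE, adjusted p = 0.196 by edgeR). DESeq2 called it, and so did edgeR when either OP50 library was left out, with the adjusted p ranging over 0.010 to 1.0 as each library was left out in turn.

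The samples were whole worms, in which fewer cells of a type and less RNA per cell cannot be told apart. Germline markers, 29 of 29 of them detected in every library, summed to 9705 to 11313 CPM with OP50 + LL100933, 8733 to 9837 CPM with OP50 + LL12007 and 13203 to 14920 CPM with OP50. Their median log2 fold changes were -0.41 with OP50 + LL100933, with 2 called lower, and -0.61 with OP50 + LL12007, with 24 called lower. Of all tested genes, 2.24% and 7.71% were called lower in the same order. The germline markers were thus lower on both diets and most so with OP50 + LL12007, with which the members' median was -0.005. Markers of body wall muscle (15) and neurons (15), all detected in every library, had medians of 0.53 and 0.62 with OP50 + LL100933 and 0.48 and 0.60 with OP50 + LL12007. The part of these tissues in the members' values was not tested.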

How the data were processed

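The 6 libraries, 2 a group, were made from N2 worms taken whole. The deposited values are unnormalized counts per gene, for which the authors cleaned their reads (Trim Galore 0.6.5, Trimmomatic 0.39 and cutadapt 2.7 in the submitters' processing notes), aligned them to ce11 (WBcel235) with STAR 2.7.2b and counted them per gene with featureCounts 1.6.4. The paper names the same tools in other versions. For featureCounts, neither its strand option nor its handling of multiply matching reads is given in the sources used here.

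After filterByExpr, the counts were scaled by TMM and fitted in edgeR 4.0.16 under R 4.3.3 over all 6 libraries (glmQLFit, robust), with the group as the one term, which leaves 3 residual degrees of freedom. Benjamini-Hochberg adjustment was over 14899 genes, with a threshold of 0.05. Standard errors were taken as the absolute log2 fold change over the root of the F statistic, and intervals (95%) use the degrees of freedom of the fit. RPKM were computed from the counts and the exonic length in the tables. The intervals cover counting noise and the spread between libraries together.

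Named members are the 4 with the lowest p in each comparison (fewer than 4 were called), the 4 highest and lowest in RPKM, *mrps-5*, *mrpl-1*, *mrpl-2*, *mrpl-37*, *mrpl-12*, *mrpl-10*, *mrps-12* and the paralogs that share a number. Of other lists, the mitochondrial ribosomal RNAs, *hsp-6*, *hsp-60* and up to 3 called genes a list are named, and *tufm-1* was chosen after its values were seen. *mrps-35* is named because it was among the members that lay on opposite sides of OP50 on the 2 diets. The list of translation factors also holds *W02A11.1*, which the tables annotate as a tRNA methyltransferase. The members and the lists were chosen with earlier results of these data known.

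Alternatives were RLE, upper-quartile and no factors beside the library total, no filter, each pair of groups alone, a replicate block, DESeq2 1.42.0 and leaving out each library. Read sequences were not analysed here.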

Additional observations from a re-analysis of the deposited data

Results flagged for a closer look

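In 5 of the 71 members (7.04%) both OP50 + LL100933 libraries lay below and both OP50 + LL12007 libraries above both OP50 libraries, so that the diets stood on opposite sides of OP50. This was so for 167 of all 14899 tested genes (1.12%). The difference between the diets was tested by edgeR over all libraries and did not pass in any of the 5. The log2 fold change of OP50 + LL12007 against OP50 + LL100933 was 0.46 for *mrpl-24* (adjusted p = 0.287), 0.49 for *mrpl-32* (adjusted p = 0.305), 0.44 for *mrps-30* (adjusted p = 0.247), 0.57 for *mrps-31* (adjusted p = 0.263) and 0.29 for *mrps-35* (adjusted p = 0.445). *mrps-35*, whose mammalian homologue has no bacterial counterpart, had 592 and 595 normalized counts with OP50 + LL12007 and 471 and 499 with OP50 + LL100933, beside 564 and 544 with OP50. With 2 libraries a group, no single library could be tested for standing apart from its group.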

How the results depend on the processing

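Of 546 alternative values of the 42 named log2 fold changes, 482 kept their direction and their side of the threshold, 16 newly passed it, 45 no longer passed it and 3 changed direction. The causes were not tested. With OP50 + LL100933 the count of members called lower was 1 (*mrps-18C*) with no filter and with DESeq2, and 0 in every fit that left out a library. With no filter, 725 of all 22505 genes were called lower with OP50 + LL100933. Between the diets, members called higher with OP50 + LL12007 were 2 of 71 (*mrps-9* and *mrps-31*) with no filter, where 354 of all 22505 genes were. With the pair of groups alone 1 of 71 was called higher, where 234 of all 14528 genes were. For fits that left out a library, calls of members between the diets are not given. Of the other genes of mitochondrial translation, those lower with OP50 + LL100933 were 0 with upper-quartile factors, 1 with library totals only, 0 with the pair alone and 0 to 3 when a library was left out. Those lower with OP50 + LL12007 were 1 with upper-quartile factors and 0 to 4 when a library was left out, and those higher were 0 to 3. Between the diets, those higher were 2 with no filter, 2 with the pair alone and 0 to 2 when a library was left out. When a library was left out, the members' median log2 fold change was -0.29 to -0.15 with OP50 + LL100933 and -0.10 to 0.090 with OP50 + LL12007. It was -0.25 to -0.15 and -0.092 to 0.078 for the large subunit, -0.36 to -0.059 and -0.10 to 0.11 for the small, and 0.13 to 0.24 for all members between the diets. Changes of direction came only from leaving out a library: *mrps-18A* ranged over -0.29 to 0.47 with OP50 + LL100933 and -0.73 to 0.012 between the diets, and *mrpl-51* over -0.34 to 0.00042 with OP50 + LL100933. The alternatives for the subunits and for the other genes were chosen after seeing the data.

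The groups share replicate numbers 1 and 2, which no label ties to a culture or a day. Deviations of same-numbered libraries had correlations of -0.002, -0.058 and 0.199 over all tested genes for the pairs of groups, in the order of the comparisons above, and 0.132, 0.131 and 0.403 over the members. With a replicate block 0 members were called in any comparison, with members' medians of -0.23, -0.007 and 0.19, and 0 other genes of mitochondrial translation were called lower with OP50 + LL100933. The intervals excluded a 2-fold change for all 71 members, and a 1.5-fold change in either direction for 39, 59 and 40 members in the same order.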
